A study of Mus musculus with 696 samples.

Results

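Tail skin that had healed for 8 weeks after a first full-thickness wound (8w pw1) was compared with unwounded tail skin (0w), in keratinocytes marked through the Lrig1 gene. The members of the comparison are the cells of the plates labelled 8w, 172 cells, and of those labelled 0w, 179 cells, so 351 of the 696 cells of the series and 4 of its 8 plates were compared. Each group has 2 plates, and the counts of the cells on a plate were added up before any comparison. The other 4 plates came from skin 1 week after the first wound (1w pw1) and 1 week after the same place had been wounded again (1w pw2, labelled week 9). They helped to estimate the spread and are quoted only beside a result.

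All animals were female mice of a mixed CBA and C57BL/6 background that carried Lrig1-EGFP-ires-CreERT2 and Rosa26-fl/STOP/fl-tdTomato. Hydroxytamoxifen was put on the tail once, at 6 to 8 weeks of age, and the first wound or the 0w harvest came at 7 to 9 weeks of age. Skin of 8w pw1 was therefore also 8 weeks older, and 8 weeks further from labelling, than skin of 0w, and no unwounded skin of that later age was used here. The Lrig1 gene drives the Cre recombinase, so the sorted tdTomato-positive cells are the progeny of cells that used Lrig1 at labelling, and they were taken from a zone with both the wound bed and hair follicles away from it. The methods name independent experiments with biological replicates, but neither they nor the labels say which mice a plate holds or whether the plates of a time point came from different mice, so the p-values measure the spread between plates, which may be technical. The titles give each time point its own Rep letter (RepB for 8w, RepC for 0w), and that letter and the time point cannot be told apart.

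Lrig1 marks stem cells of the junctional zone, the part of the hair follicle where the sebaceous gland opens, and their progeny line the upper follicle and the gland. After a wound such cells also enter the surface epidermis, where basal cells make Krt5 and Krt14, differentiating cells make Krt1 and Krt10, and activated cells near a wound make the stress keratins Krt6a, Krt6b and Krt16. The comparison asks which of these programmes still stand at another level once the skin has closed and rested.

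The plates held 85 to 91 cells and 12293182 to 18652318 estimated counts. Median counts per cell were 131600 and 129320 at 0w and 105580 and 64980 at 8w pw1, so the healed plates were the shallower ones. The deepest cell gave 12.1% of all counts on 8w pw1 replicate 2 and 3.64% to 7.58% on the other 3 plates. Levels correlated across 13853 genes at 0.850 to 0.888 (Pearson, on log2 CPM, that is, reads scaled to a common library total) between any 2 of the 4 plates, and the pair of the same group was not always the closest. Cells with more Krt5 and Krt14 than Krt1 and Krt10 counts made up 81.8% and 82.4% of the 0w plates and 80.0% and 85.1% of the 8w pw1 plates. That basal-type share was 34.2% to 53.5% on the 4 plates taken 1 week after a wound, so in this respect the healed plates resembled unwounded ones.

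All 6 basal and all 6 suprabasal markers had counts on these plates. As some counts were found for every cell type listed below, this could not test the keratinocyte label. Summed basal marker levels were 2388 and 1985 CPM at 0w and 4116 and 5076 CPM at 8w pw1, and those of 6 upper follicle markers were 5749 and 5366 CPM against 13068 and 16867 CPM. The basal sums were mostly Krt14 and Krt5, and the upper follicle sums nearly all Cst6 and Krt79. The 6 sebaceous markers split by plate instead, at 882 and 7468 CPM at 0w and 914 and 3686 CPM at 8w pw1. Markers of other cell types had counts too. Of 6 fibroblast markers 5 were in the table, and they summed to 25.4 and 20.5 CPM at 0w against 3.10 and 4.31 CPM at 8w pw1. The 5 Langerhans cell markers in the table (Cd207 was not) summed to 0.623 and 0.755 CPM against 2.16 and 7.83 CPM, and the 5 of T cells to 3.43 and 2.97 CPM against 4.68 and 9.72 CPM. The melanocyte markers summed to 28.4 and 31.2 CPM against 76.9 and 8.42 CPM, and the 1 Merkel cell marker in the table stood at 0.415 and 1.78 CPM against 2.66 and 0.718 CPM. The endothelial sum, 473 and 873 CPM against 856 and 1846 CPM, was nearly all Pecam1. The bulge markers summed to 1515 and 689 CPM against 939 and 564 CPM. Whether these counts came from other cells or from the sorted cells themselves was not tested, nor was their part in the results. In sums per plate, fewer cells of a type and less RNA per cell cannot be told apart, so shares of cells are given beside the levels of the main genes.

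With the edgeR quasi-likelihood test, 0 of 13853 genes (0%) passed an adjusted p of 0.05 and a fold change above 2. At an unadjusted p below 0.05, 528 genes (3.81%) were higher and 369 (2.66%) lower at 8w pw1. The level on both 8w pw1 plates lay above both 0w plates in 2465 genes (17.8%) and below both in 2158 (15.6%). DESeq2, a second tool, called 91 genes higher (0.657%) and 64 lower (0.462%), 155 in all. Of all genes tested, 7392 had a log2 fold change above 0 and 6437 below it. Each of these numbers is the background for counts of the same kind below. A list whose share is near that of all genes is not set apart by its count. The median log2 fold change of all genes was 0.07. The genes, lists and counts that follow are therefore differences in level with their errors, and none of the genes is called by this edgeR fit. Other edgeR settings called 0 to 3 genes each. These were Krt2, Serpinb3b and 2610528A11Rik with a replicate block (the plate number as a second term), Krt2, Stfa1 and 2610528A11Rik with each cell weighted equally, and Stfa1 and Sprr2a2 without 8w pw1 replicate 2.

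**Figure D1:**
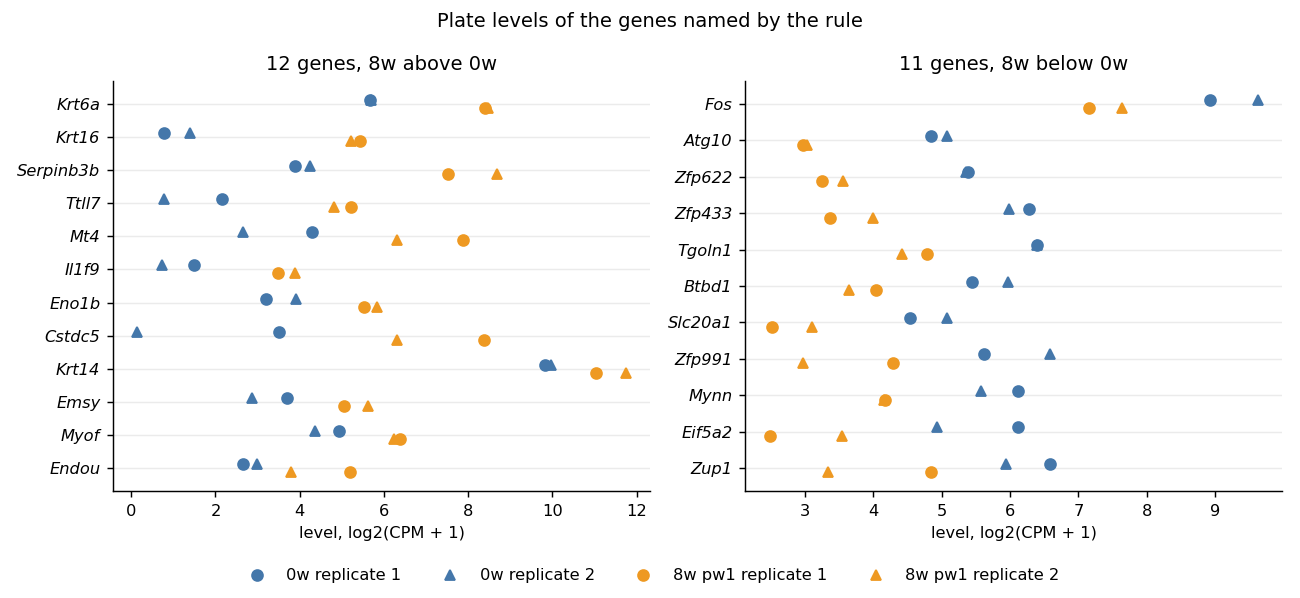
Levels of 23 of the 24 genes taken by the naming rule, as log2(CPM + 1), on the 2 plates of unwounded skin (0w) and the 2 of healed skin (8w pw1), with 12 genes higher and 11 lower at 8w pw1. The rule takes only genes whose plates do not overlap, so the gap between the colours is built in, and the sizes are what the plot adds, from 5.28 for Cstdc5 (3.91 to 10.71 with a single plate left out) to -2.68 for Eif5a2 on the log2 scale.

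Of the stress keratins, which keratinocytes make at wound edges, Krt16 and Krt6a stood above the unwounded level. Krt6b was rare, and Krt17 overlapped between the groups. Krt16 (chr11:100246091-100248902, GRCm38) stood at 0.727 and 1.62 CPM on the 0w plates and at 42.0 and 36.1 CPM on the 8w pw1 plates. Both healed plates were far above both unwounded ones, a log2 fold change of 5.05 ± 0.75 (SE, edgeR adjusted p = 0.177). A week after the first wound the same gene had reached 2421 and 1776 CPM, so the 8w pw1 level lay between that and the unwounded one. Krt6a (chr15:101689910-101694307), a partner keratin of Krt16, read 49.9 and 50.7 CPM at 0w and 334 and 354 CPM at 8w pw1. The plates of each group nearly coincided and the difference was 2.77 ± 0.46 on the log2 scale (adjusted p = 0.218, edgeR; 5.17e-05 with DESeq2). Krt6b, its neighbouring copy, had 0 counts at 0w and 4 counts in 3 cells at 8w pw1, against 5141 and 2464 CPM a week after wounding.

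The number of cells with Krt16 or Krt6a transcripts and their level in such cells were both higher. After every cell had been thinned to 20000 counts, which left out 12 shallower cells at 0w and 18 at 8w pw1, Krt16 was seen in 2.33% and 6.17% of the 0w cells and in 21.0% and 15.1% of the 8w pw1 cells. Without thinning these shares were 9.09% and 8.79% against 27.1% and 24.1%. Krt6a was seen in 25.6% and 21.0% of thinned cells at 0w and in 35.8% and 39.7% at 8w pw1, and a positive cell held 9.05 and 4.47 counts on average at 0w against 24.6 and 32.5. The single highest cell gave 25.9% and 28.9% of the Krt6a counts on the 8w pw1 plates, so neither plate rested on 1 cell. Restricted to basal-type cells, the log2 fold changes were 5.56 for Krt16 and 2.70 for Krt6a.

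The wound-activated list as a whole, with Krt6a, Krt6b and Krt16 in it, was mixed. Of its 27 genes 25 were tested, with a median log2 fold change of 0.65, 8 genes higher and 2 lower at an unadjusted p below 0.05. That median was 1.29 with 3 genes at 0 counts in a group set to their bound and 5 at or under 3 counts left out, and leaving out 0w replicate 1 gave 2.52, 0w replicate 2 gave 0.33 and 8w pw1 replicate 1 gave 0. The alarmins S100a8 and S100a9 were among the higher ones, but on 1 plate only, with S100a8 at 315 CPM on 8w pw1 replicate 1 and 0.1305 CPM on replicate 2. The urokinase gene Plau, which starts the breakdown of the fibrin clot, was higher on both plates, at 44.8 and 15.5 CPM against 9.24 and 2.21 CPM (log2 fold change 2.39 ± 0.87, edgeR adjusted p = 0.715). Il1rn, the natural inhibitor of interleukin 1, and Fn1, fibronectin, were lower on both plates, as the fibroblast markers were. Mmp9, Mmp13 and Il24, which had counts on some plates taken a week after wounding, had 0 counts on all 4 plates. Krt17 did not separate the groups, at 962 and 358 CPM against 1023 and 852 CPM. Il1f9, the interleukin 36 gamma gene under its older symbol, was taken by the naming rule, with 1.82 and 0.647 CPM at 0w and 10.2 and 13.8 CPM at 8w pw1 (log2 fold change 3.27 ± 0.71, edgeR adjusted p = 0.408).

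Inhibitors of proteases formed a second group above the unwounded level. The list held stefins, which block cysteine proteases, and clade B serpins, 21 genes with 17 tested. Its median log2 fold change was 3.31, or 2.44 with 3 genes set to their bound and 3 rare ones left out, and it was 2.0 without 8w pw1 replicate 1. At an unadjusted p below 0.05, 8 genes were higher and 2 lower. Serpinb3b (chr1:107153940-107278361 in GENCODE) read 13.9 and 18.0 CPM at 0w and 182 and 409 CPM at 8w pw1. The groups were well apart, at 4.21 ± 0.72 on the log2 scale (edgeR adjusted p = 0.218, 0.0254 with the replicate block and 0.148 to 0.784 in the other edgeR settings). The gene was seen in 9.30% and 11.1% of thinned cells at 0w against 28.4% and 30.1%. All 4 genes of the Serpinb3 cluster lay higher on both plates, but the other 3 were rare. Serpinb3a had 0 counts at 0w and stood at 2.59 and 0.979 CPM at 8w pw1, Serpinb3c went from 0.104 and 0.0539 to 3.24 and 4.96 CPM, and Serpinb3d from 0 counts to 2.02 and 13.3 CPM.

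Among the stefins, Cstdc5 read 10.4 and 0.108 CPM at 0w and 331 and 77.8 CPM at 8w pw1 (log2 fold change 5.28 ± 1.45, edgeR adjusted p = 0.624). The value rests on single plates, since it was 10.71 with 0w replicate 1 left out and 3.91 with 8w pw1 replicate 1 left out. Stfa1 had 0 counts at 0w and 83.9 and 5.48 CPM at 8w pw1, which is at least 563-fold higher against a floor of 3 counts over both 0w plates. Its 2 healed plates differed widely, so this bound rests mainly on the first, where 1 cell gave 66.0% of the counts. Without 8w pw1 replicate 1 the fitted log2 fold change was 9.53 in place of 12.53. Stfa3 went the other way, from 94.8 and 78.6 CPM at 0w to 46.1 and 12.5 CPM, as did Serpinb11, from 110 and 49.5 to 32.3 and 10.05 CPM. These families are made of near copies whose reads the counting could have split between members, so the values of single members are uncertain.

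The start regions of the Serpinb3 genes show how alike these copies are, and 2 of the 4 are given for that reason. Each window runs from 250 bases before to 50 bases after the start of the gene in RefSeq (GRCm38.p6, minus strand), 5′ to 3′, at chr1:107161065-107161364 for Serpinb3b and chr1:107052254-107052553 for Serpinb3a. The GENCODE interval of Serpinb3b given above reaches further upstream than this RefSeq start, into the start window of Serpinb3c (chr1:107278322-107278621). Capitals mark TATAAA, the TATA box, searched on both strands.
Serpinb3b: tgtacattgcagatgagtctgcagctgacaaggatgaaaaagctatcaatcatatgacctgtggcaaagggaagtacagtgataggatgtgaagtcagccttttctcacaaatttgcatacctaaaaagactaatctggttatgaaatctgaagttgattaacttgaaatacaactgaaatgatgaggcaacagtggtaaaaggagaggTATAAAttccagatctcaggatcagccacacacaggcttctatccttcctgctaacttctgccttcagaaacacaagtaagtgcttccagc
Serpinb3a: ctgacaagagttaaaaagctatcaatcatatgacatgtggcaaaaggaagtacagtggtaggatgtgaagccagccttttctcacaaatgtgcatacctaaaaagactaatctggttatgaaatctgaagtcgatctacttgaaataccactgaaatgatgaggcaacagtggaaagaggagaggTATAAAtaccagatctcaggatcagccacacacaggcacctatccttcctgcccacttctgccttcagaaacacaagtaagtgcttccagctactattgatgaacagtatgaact
Aligned without gaps at the best offset, 257 of 276 bases (93.1%) of this pair were identical, and 279 of 290 (96.2%) for Serpinb3b and Serpinb3c, but only 91 of 295 (30.8%) for Serpinb3b and Serpinb3d. TATAAA occurred in 7 of the 17 windows found for the stefin and serpin list (41.2%), those of Serpinb2, Serpinb3a, Serpinb3b, Serpinb3c, Serpinb3d, Serpinb6c and Serpinb12. Of all 27025 windows 14.2% held it. A match is a description of these letters and not a site shown to work.

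Small proline-rich proteins, which are cross-linked into the cornified envelope, lay in the same direction but in few cells. Of 14 genes 10 were tested, with a median log2 fold change of 3.88 and 6 higher at an unadjusted p below 0.05. Only 3 of them, Sprr1a, Sprr2a2 and Sprr2a3, had both 8w pw1 plates above both 0w plates. The median was 2.68 with 3 genes set to their bound and 1 left out, and 0 without 8w pw1 replicate 1. Sprr1a read 212 and 58.3 CPM at 0w and 1029 and 295 CPM at 8w pw1, and it was seen in 15.1% and 13.6% of thinned cells against 22.2% and 13.7%. Sprr2a2 went from 0.208 and 0.270 CPM to 223 and 12.3 CPM, and 1 cell gave 76.9% of the counts of 8w pw1 replicate 1. Sprr2i was seen in only 1 cell. The Sprr2 genes, too, are near copies of each other.

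Of the genes of interfollicular differentiation, 6 were higher and 3 late ones lower at an unadjusted p below 0.05. Of 22 tested genes 18 had a log2 fold change above 0 and 4 below it, the median was 1.01, and 12 genes had both 8w pw1 plates above both 0w plates. Leaving out 0w replicate 1 gave a median of 1.54, and 8w pw1 replicate 1 of 0.35. Ivl, involucrin of the cornified envelope, read 1.97 and 9.60 CPM at 0w and 46.9 and 23.7 CPM at 8w pw1 (log2 fold change 2.61 ± 0.78, edgeR adjusted p = 0.676). Krt10 read 831 and 1703 CPM against 2257 and 3034 CPM, although the share of thinned cells with it was 57.0% and 46.9% against 50.6% and 50.7%. Dsg1a, a desmosomal cadherin, was seen in 38.4% and 39.5% of cells at 0w and in 66.7% and 65.8% at 8w pw1, with levels of 660 and 772 against 1320 and 1057 CPM. The late genes Lor, Flg2 and Hrnr, which fill keratohyalin granules and the horny layer, were lower at that p, with Lor at 18.1 and 0.485 CPM at 0w and 0.144 and 0.0652 CPM at 8w pw1. Most of that late signal came from 0w replicate 1, since Flg2 and Hrnr had 0 counts on 0w replicate 2. The cornified envelope and granule genes did not all go that way, since 4 of the 8 listed had a log2 fold change above 0. Ivl and Tgm3 were higher at an unadjusted p below 0.05, and Casp14 had both 8w pw1 plates above both 0w plates.

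Krt2, a keratin of upper suprabasal layers, had the log2 fold change furthest above 0 of the list. It stood at 2.08 and 9.39 CPM at 0w and at 363 and 739 CPM at 8w pw1, a log2 fold change of 6.59 ± 1.28 (edgeR adjusted p = 0.357). With the replicate block it was called (adjusted p = 0.0254, edgeR), as it was with each cell weighted equally (0.0212), and the other edgeR settings gave 0.148 to 0.967. The transcript was found in 5 and 4 cells at 0w and in 15 and 11 cells at 8w pw1, and 1 cell gave 72.6% of the counts of 8w pw1 replicate 2. In basal-type cells alone the log2 fold change was 2.47. A week after wounding Krt2 had stood at 3621 and 9213 CPM.

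Factors that control epidermal differentiation were split. Zfp750 read 44.4 and 93.2 CPM at 0w and 143 and 190 CPM at 8w pw1, and it was seen in 26.7% and 24.7% of thinned cells against 48.1% and 45.2%. Grhl3, another activator of late epidermal genes, read 6.07 and 7.55 CPM against 13.5 and 42.7 CPM. Gata3, a factor of epidermal and hair lineages, was lower, at 56.7 and 98.3 CPM against 27.2 and 28.0 CPM (log2 fold change -1.49 ± 0.49, edgeR adjusted p = 0.685). Its levels a week after the first wound (100.6 and 65.0 CPM) and a week after the second (72.5 and 72.6 CPM) were all above both 8w pw1 plates. Over the 22 factors tested the median was 0.12, with 2 higher and 1 lower at an unadjusted p below 0.05.

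**Figure D2:**
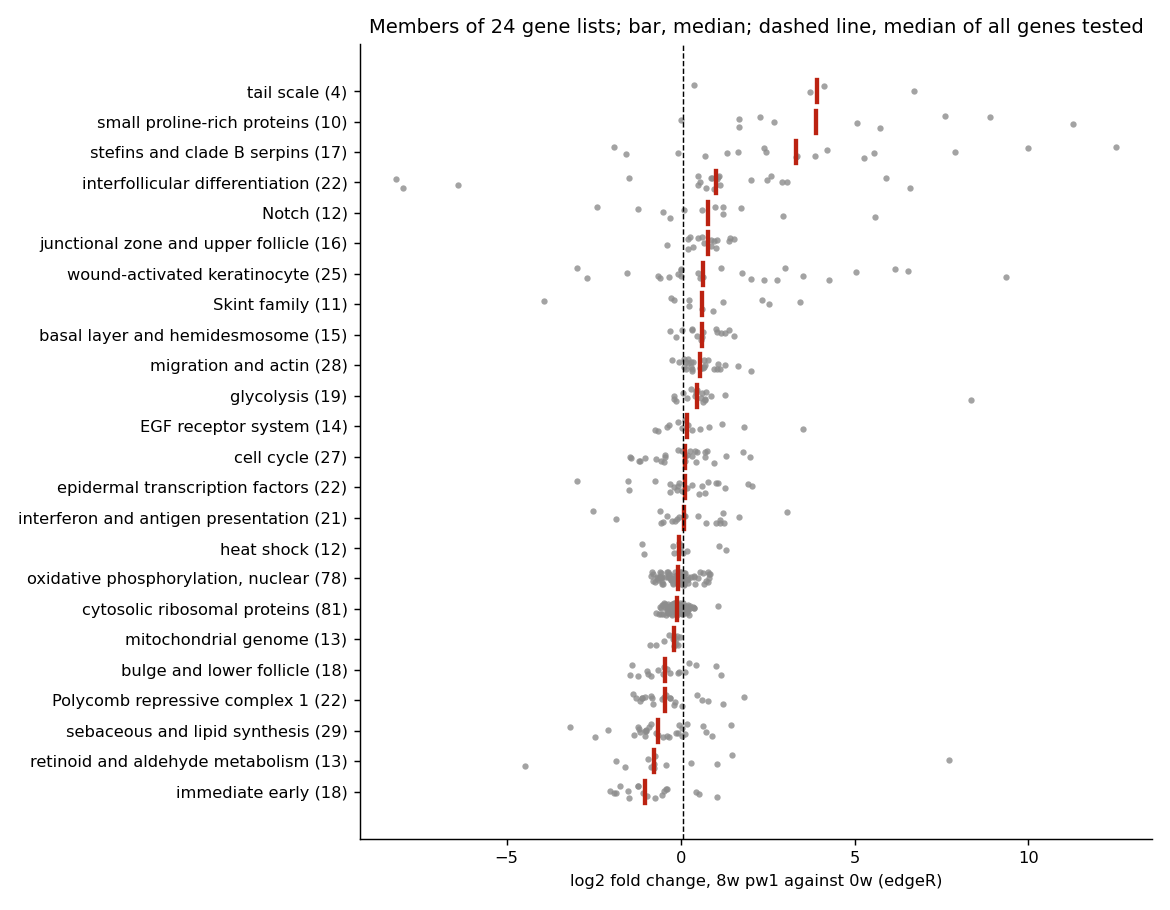
Log2 fold change of 8w pw1 against 0w (edgeR) for each tested member of 24 gene lists (points, with the number tested in brackets), the median of each list (red bar) and the median of all genes tested (dashed line, 0.07). Tail scale, small proline-rich, and stefin and serpin genes lie furthest right, at medians of 3.91 (4 genes only), 3.88 and 3.31, and immediate early genes furthest left, at -1.03.

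The basal keratin Krt14 lay higher on both 8w pw1 plates. Krt14 (chr11:100203162-100207548) read 903 and 999 CPM at 0w and 2104 and 3423 CPM at 8w pw1, 2.91-fold by the means (log2 fold change 1.54 ± 0.43, edgeR adjusted p = 0.630). Nearly every cell had it at both time points, 87.2% and 92.6% of thinned cells against 96.3% and 91.8%, and the mean in a positive cell was 27.8 and 22.3 counts at 0w against 68.8 and 90.4. The shares overlapped and the amounts per positive cell did not. Its partner Krt5 read 425 and 238 CPM against 724 and 612 CPM, while Krt15, a keratin of resting basal and bulge cells, read 686 and 607 CPM against 489 and 564 CPM. Of the 15 genes of the basal layer and hemidesmosome list 13 had a log2 fold change above 0 (median 0.61), and 2, Krt14 and the laminin gene Lama3, were higher at an unadjusted p below 0.05. Leaving out 0w replicate 1 gave a median of 0.96, 0w replicate 2 of 0.26 and 8w pw1 replicate 1 of 0.36. Trp63, the master factor of the basal layer, read 332 and 380 CPM against 338 and 395 CPM.

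Upper follicle genes, the own programme of these cells, mostly had fold changes above 0, but fewer of them separated by plate. Of 16 tested genes of the junctional zone and the sebaceous duct 15 had a log2 fold change above 0 (median 0.78). Both 8w pw1 plates lay above both 0w plates in 7 of them and below in 0, and 4 were higher and 0 lower at an unadjusted p below 0.05. Leaving out the deepest cell of each plate gave a median of 0.39. Krt79, a keratin of duct and infundibulum cells (chr15:101929332-101940324), read 1114 and 1659 CPM at 0w and 2886 and 5211 CPM at 8w pw1 (log2 fold change 1.55 ± 0.46, edgeR adjusted p = 0.676). The shares of cells with it overlapped, at 31.4% and 48.1% of thinned cells against 44.4% and 39.7%. A positive cell held 82.8 and 65.3 counts on average against 141 and 159. Cst6, a protease inhibitor of the duct, read 4451 and 3534 CPM against 9915 and 11194 CPM, and Plet1, a junctional zone marker, 83.3 and 116 CPM against 168 and 365 CPM. The water channel Aqp3 read 227 and 179 CPM against 326 and 464 CPM. Krt79, Cst6 and Aqp3 each had non-overlapping plates.

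Lrig1 itself did not separate the groups, at 36.7 and 24.3 CPM at 0w and 45.0 and 25.4 CPM at 8w pw1 (log2 fold change 0.21 ± 0.55). It was seen in 40.7% and 28.4% of thinned cells against 39.5% and 26.0%. Ly6a, the Sca-1 antigen of the upper follicle, read 102 and 31.5 CPM against 102 and 60.3 CPM, so its groups overlapped. A week after the first wound Ly6a stood at 747 and 493 CPM.

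Of 18 tested markers of the bulge and lower follicle, 0 passed an unadjusted p of 0.05 in either direction. Their median log2 fold change was -0.44, and 13 were below 0. With 0w replicate 1 left out the median was -0.13, with 8w pw1 replicate 1 left out -0.71, and it was -0.16 without the deepest cell of each plate, -0.18 in basal-type cells and -0.21 with each cell weighted equally. Lgr5, which marks lower follicle stem cells, read 81.8 and 66.9 CPM at 0w and 35.7 and 39.8 CPM at 8w pw1, and Abi3bp, a matrix protein gene, 196 and 153 CPM against 45.4 and 87.0 CPM. Postn, periostin, read 1220 and 430 CPM against 731 and 321 CPM, a difference smaller than that between the 0w plates.

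Genes of the scale, the hard plate that covers tail epidermis between the rows of follicles, were few and mostly rare. Of the 6 listed genes 4 were tested, and 1 was higher at an unadjusted p below 0.05. Their median of 3.91 was 3.51 with 1 gene set to its bound and 1.83 with the stricter filter on cells (2000 genes or more and up to 25% mitochondrial counts). The most abundant was Mt4, a metallothionein of stratified epithelium, at 18.5 and 5.34 CPM at 0w and 233 and 78.8 CPM at 8w pw1 (log2 fold change 3.71 ± 0.75, edgeR adjusted p = 0.362). It was seen in 6.98% and 7.41% of thinned cells against 23.5% and 16.4%. Its log2 fold change was 2.73 without 8w pw1 replicate 1, 4.79 without 0w replicate 1 and 7.12 in basal-type cells. Krt84 had counts in 1 cell on each 8w pw1 plate. In the Skint family, immunoglobulin-like proteins of keratinocytes that shape skin gamma delta T cells, the median was 0.63 (0.04 with each cell weighted equally, 1.06 without 8w pw1 replicate 1) and 3 of 11 genes were higher at an unadjusted p below 0.05. Skint2 read 16.6 and 15.9 CPM at 0w and 62.2 and 103 CPM at 8w pw1, and Skint1 128 and 71.1 CPM against 219 and 246 CPM. Skint6 was also higher, but 99.2% and 100% of its 8w pw1 counts came from 1 cell per plate.

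Immediate early genes, transcription factors and brakes that cells switch on within minutes of a stimulus, were the main group under the unwounded level. Of 18 tested genes 15 had a log2 fold change below 0 and the median was -1.03, with 6 lower and 0 higher at an unadjusted p below 0.05 and 9 with both 8w pw1 plates below both 0w plates. The median was -0.52 when each cell was given the same weight. Fos (chr12:85473890-85477273), a subunit of the AP-1 factor, read 486 and 790 CPM at 0w and 141 and 199 CPM at 8w pw1. Both healed plates were lower (log2 fold change -1.91 ± 0.47, edgeR adjusted p = 0.616; 0.0285 with DESeq2). The share of thinned cells with Fos was 82.6% and 75.3% at 0w and 43.2% and 32.9% at 8w pw1. A single cell gave 64.3% of the Fos counts of 8w pw1 replicate 2, and without the deepest cell of each plate the log2 fold change was -2.57.

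Junb, which pairs with Fos in AP-1, read 19.8 and 41.6 CPM at 0w and 7.56 and 9.26 CPM at 8w pw1 (log2 fold change -1.87 ± 0.61, edgeR adjusted p = 0.685). It was seen in 26.7% and 35.8% of thinned cells against 7.41% and 12.3%. Atf3, a stress-induced factor, read 19.1 and 15.3 CPM against 5.90 and 4.31 CPM, and Egr3 63.8 and 33.7 CPM against 11.4 and 23.3 CPM. Btg2, a brake on proliferation, read 21.1 and 14.1 CPM against 3.89 and 4.83 CPM, and Ier2 37.0 and 71.8 CPM against 27.5 and 19.0 CPM. Egr1 was below the unwounded level on both plates, at 170 and 223 CPM against 92.3 and 76.8 CPM. Not every gene of the list was lower, since Ier3, a survival gene, read 20.9 and 13.6 CPM against 37.0 and 34.1 CPM, and Klf4 overlapped.

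The start regions of Fos and Junb are shown because both genes were lower together. They come from RefSeq (GRCm38.p6), with 250 bases before and 50 bases after the start, at chr12:85473640-85473939 on the plus strand for Fos and chr8:84978699-84978998 on the minus strand for Junb. Capitals mark TATAAA and TGACG, the half-site of the cAMP response element, each searched on both strands.
Fos: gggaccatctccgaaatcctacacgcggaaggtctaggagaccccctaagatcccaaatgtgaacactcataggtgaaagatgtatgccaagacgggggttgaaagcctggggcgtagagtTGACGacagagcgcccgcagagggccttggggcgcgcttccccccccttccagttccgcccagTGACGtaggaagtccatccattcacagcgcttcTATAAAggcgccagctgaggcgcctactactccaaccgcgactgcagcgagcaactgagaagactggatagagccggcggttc
Junb: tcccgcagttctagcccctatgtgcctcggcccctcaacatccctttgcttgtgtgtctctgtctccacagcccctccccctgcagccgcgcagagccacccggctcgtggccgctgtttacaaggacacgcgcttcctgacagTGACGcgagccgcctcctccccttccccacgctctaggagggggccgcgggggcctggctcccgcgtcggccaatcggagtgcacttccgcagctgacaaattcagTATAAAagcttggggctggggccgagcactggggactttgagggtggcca
In the Fos window TGACG begins 129 and 66 bases before the start and TATAAA begins 33 bases before it, and the Junb window holds TGACG beginning 106 bases before the start and TATAAA at the start itself. TGACG was in 9 of the 16 windows found for the immediate early list (56.2%) and in 6 of the 9 found for the lower genes of the naming rule (66.7%: Atg10, Eif5a2, Fos, Mynn, Slc20a1 and Zfp622), against 21.0% of all 27025 windows and 0 of the 8 found for the higher genes. The AP-1 site, TGACTCA or TGAGTCA, was in 0 of the 16 immediate early windows and in 5.17% of all. The full palindromic cAMP response element, which contains TGACG, was in 2 of the 16, those of Btg2 and Dusp1, and in 1.88% of all. These windows are short, and nothing about the factors follows from a match or its absence.

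Among the 12 lower genes of the naming rule, Fos is the single member of a list. Zfp622, a ribosome assembly factor, read 41.0 and 40.0 CPM at 0w and 8.57 and 10.8 CPM at 8w pw1, so the plates of each group were close together (log2 fold change -2.06 ± 0.54, edgeR adjusted p = 0.616). Atg10, an enzyme of autophagosome formation, read 27.7 and 32.9 CPM against 6.84 and 7.18 CPM. Tgoln1, a protein of the trans-Golgi network, read 83.1 and 83.0 CPM against 26.7 and 20.4 CPM, with a log2 fold change of -1.82 ± 0.48. Slc20a1, a phosphate transporter, read 22.3 and 32.9 CPM against 4.75 and 7.57 CPM. Eif5a2, a translation factor, read 68.7 and 29.5 CPM against 4.61 and 10.7 CPM, the largest difference of the 12 (log2 fold change -2.68 ± 0.81). Btbd1, Zup1, Mynn, Zfp433 and Zfp991 lay between -2.52 and -1.76, and reads of the last 2 may be shared with other zinc finger genes of their large family. DESeq2 called 9 of the 12 lower and 8 of the 12 higher genes at an adjusted p below 0.05, all with a fold above 2. Of all genes it called 0.462% lower and 0.657% higher. The rule took its genes by a low edgeR p on the same plate sums, so these counts are largely built in and are no separate support.

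Of the higher genes not yet described, Ttll7, which adds glutamate chains to tubulin, read 3.43 and 0.701 CPM at 0w and 35.9 and 27.2 CPM at 8w pw1 (log2 fold change 3.93 ± 0.73, edgeR adjusted p = 0.333). Myof, a membrane repair protein, read 29.7 and 19.4 CPM against 81.9 and 74.6 CPM. Endou, an endoribonuclease, read 5.24 and 6.96 CPM against 35.8 and 12.9 CPM, and Emsy, a chromatin protein, 11.9 and 6.31 CPM against 32.3 and 48.4 CPM. Eno1b, an enolase copy, read 8.20 and 14.0 CPM against 45.0 and 56.4 CPM, and its reads may be shared with Eno1. The gene 2610528A11Rik had 0 counts at 0w and stood at 3.67 and 3.0 CPM in 7 and 3 cells at 8w pw1, at least 42.0-fold higher against 3 counts over both 0w plates. It had the lowest adjusted p of the genes named here (edgeR, 0.108) and was called when a replicate block was added (0.0331) and with each cell weighted equally (0.0193).

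Signalling systems of the epidermis mostly overlapped, and their medians lay nearer 0 with each cell weighted equally (0.20 for Notch, 0.06 for the EGF system and -0.13 for retinoid metabolism). With the stricter filter on cells they were 0.04 for Notch, 0.38 for the EGF system and -0.32 for retinoid metabolism. These medians also moved with single plates. Leaving out 0w replicate 1, 0w replicate 2 or 8w pw1 replicate 1 gave 1.5, 0.38 and 0.22 for Notch, 0.89, -0.07 and -0.16 for the EGF system and -0.2, 0 and -0.33 for retinoid metabolism, and leaving out 8w pw1 replicate 2 gave 0.44 for the EGF system. In the Notch list (median 0.79) 2 of 12 genes were higher at an unadjusted p below 0.05, with Nrarp, a feedback target of the pathway, at 7.48 and 12.4 CPM at 0w and 24.3 and 41.8 CPM at 8w pw1. Maml2, a co-activator, was the other, and 1 cell on each healed plate gave 80.3% and 82.7% of its counts. Of the 14 receptors, ligands and inhibitors of the EGF system (median 0.17) only the ligand Btc passed that p, at 5.56 and 1.89 CPM against 19.9 and 6.46 CPM. Egfr read 236 and 252 CPM against 227 and 277 CPM. In retinoid metabolism (13 genes tested, median -0.75) the binding protein Crabp2 was higher at that p, at 13.4 and 24.9 CPM against 28.3 and 78.3 CPM. Also higher was Cyp26b1, which degrades retinoic acid, at 0.0519 and 0 CPM against 9.36 and 4.89 CPM, and 1 cell gave 96.9% of its counts on 8w pw1 replicate 1.

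Among metabolic and migration genes few or none passed an unadjusted p of 0.05. Of 19 tested glycolysis genes 1 was higher at that p, a share near the 3.81% of all genes, and 16 had a log2 fold change above 0 (median 0.46, or 0.71 without 0w replicate 1). Pkm read 92.6 and 58.7 CPM at 0w and 126 and 122 CPM at 8w pw1. The one past that p was the lactate exporter Slc16a3, with 0 counts at 0w and 3.96 and 0.979 CPM at 8w pw1. Slc2a1, the glucose transporter Glut1, read 61.3 and 52.1 CPM against 66.5 and 51.5 CPM, a log2 fold change of 0.06 ± 0.47. Of 28 genes of migration and the actin skeleton 26 had a log2 fold change above 0 (median 0.57, or 0.37 without 8w pw1 replicate 1), 8 had both 8w pw1 plates above both 0w plates and 0 passed an unadjusted p of 0.05 in either direction. Actb read 988 and 770 CPM against 1326 and 1433 CPM, and Itga3, an integrin subunit that binds laminin, 18.4 and 7.93 CPM against 52.1 and 29.9 CPM.

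In several other lists the median depended on single plates or few genes passed. Of 27 cell cycle genes 0 passed an unadjusted p of 0.05 in either direction (median 0.13, or -0.13 and 0.25 with the first or second 0w plate left out, 0.56 and -1.55 with the first or second 8w pw1 plate left out, and -1.71 with the stricter filter on cells), and the 5 division markers summed to 366 and 412 CPM at 0w and to 78.8 and 616 CPM at 8w pw1. Of 21 interferon and antigen presentation genes 0 passed (median 0.10, or 0.8 with the second 0w plate left out and -0.34 with the first 8w pw1 plate left out), with H2-D1, a class I molecule, at 37.7 and 56.1 CPM against 68.5 and 121 CPM. Of 22 subunits and partners of Polycomb repressive complex 1, which puts ubiquitin on histone H2A, 0 passed (median -0.45, or -0.2 with each cell weighted equally and -0.71 with that stricter filter on cells). The healed plates were both under the unwounded pair in 8 of them and both above it in 2, Cbx2 and Kdm2b, and among the 8 was Rnf2 at 59.7 and 90.5 CPM against 56.4 and 29.2 CPM. Sebaceous and lipid genes (29 tested, median -0.66, but 0.39 with the second 0w plate left out, and -0.24 and -1.32 with the first or second 8w pw1 plate left out) followed the plates, with Scd1 at 485 and 4632 CPM at 0w and 552 and 2282 CPM at 8w pw1, and only Insig1, a brake on sterol synthesis, passed, at 7.68 and 31.6 CPM against 2.81 and 4.31 CPM. Of 12 heat shock genes 2 were lower at an unadjusted p below 0.05 (2.66% of all genes were), Hsp90aa1 at 494 and 507 CPM against 268 and 216 CPM and Hspd1 at 226 and 408 CPM against 163 and 134 CPM. The median of that list was -0.03, moving to -0.41 and 0.27 when the first or second 0w plate was left out and to 0.34 and -0.56 when the first or second 8w pw1 plate was. Nuclear genes of oxidative phosphorylation (78 genes) and cytosolic ribosomal proteins (81 genes) both had medians of -0.09. The first moved to -0.38 and 0.18 with the first or second 0w plate left out, and the second was 0.12 with each cell weighted equally, so its sign turned. In the main scaling 23 ribosomal protein genes had both healed plates below both unwounded ones and 2 above. The 13 mitochondrial messages had a median of -0.18, which was -0.56 and 0.06 with the first or second 0w plate left out and -0.52 with the second 8w pw1 plate left out. Mitochondrial transcripts made up 24.6% and 29.7% of counts at 0w and 23.1% and 25.3% at 8w pw1.

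**Figure D3:**
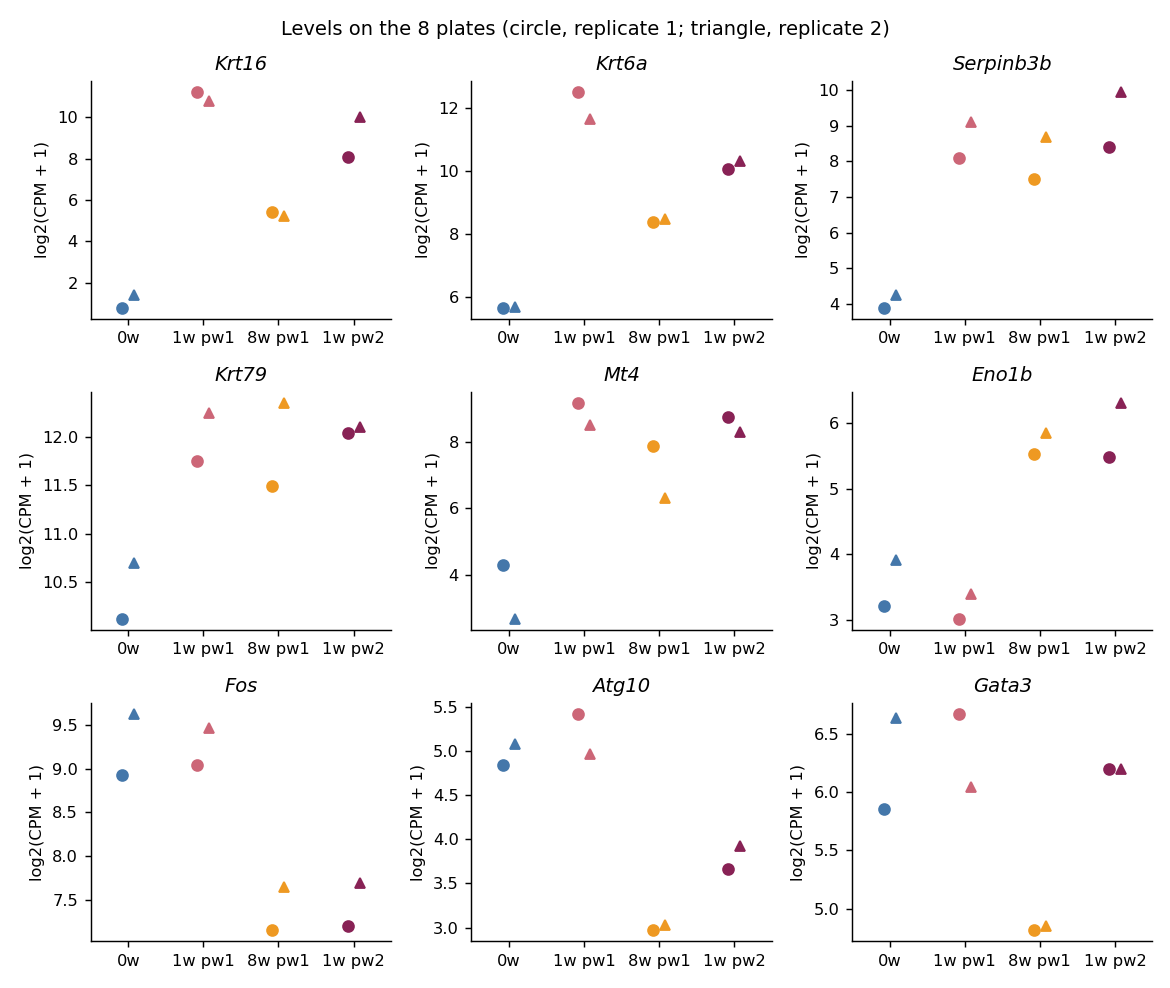
Levels as log2(CPM + 1) of 9 genes on the 2 plates of each of the 4 time points, in the order of the experiment. Krt16 and Krt6a peak a week after the first wound and sit in between at 8w pw1, Fos is high at 0w and 1w pw1 and low at 8w pw1 and 1w pw2, and Gata3 is low at 8w pw1.

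Over the time course the genes followed different paths, given here as values because the contrasts with 0w share its plates. For Krt6a the levels were 49.9 and 50.7 CPM at 0w, 5798 and 3230 CPM at 1w pw1, 334 and 354 CPM at 8w pw1 and 1070 and 1259 CPM at 1w pw2. Krt79 stood at 3445 and 4837 CPM at 1w pw1 and at 4199 and 4378 CPM at 1w pw2. Its 8w pw1 plates, at 2886 and 5211 CPM, lay below and above these values, and all were above its 0w level. Krt14, at 4590 and 3587 CPM at 1w pw1 and 3168 and 3328 CPM at 1w pw2, was also above its 0w level on all 6 plates. Fos showed another order, with 525 and 705 CPM at 1w pw1, as at 0w, and 145 and 205 CPM at 1w pw2, as at 8w pw1. Eno1b, too, was at 7.06 and 9.55 CPM at 1w pw1 and at 43.8 and 78.1 CPM at 1w pw2. Zfp622 was high at 0w only, with 11.2 to 14.5 CPM on the 4 plates of 1w pw1 and 1w pw2.

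Setting 1w pw2 against 1w pw1 compares the second healing with the first, and this contrast shares no plate with that of 8w pw1 and 0w. In it 468 genes (3.38%) were higher and 364 (2.63%) lower at an unadjusted p below 0.05. Across all 13853 genes the 2 sets of log2 fold changes correlated at 0.09 (Pearson) and 0.14 (Spearman), and across the 6046 genes with an average log2 CPM of at least 4 at 0.13 and 0.18. Genes are not independent points, and plates of both contrasts share the strain, the sort and the protocol. In both contrasts the later group was also older and further from labelling, week 8 against week 0 and week 9 against week 1. Age and wound history cannot be told apart in either of them. Higher in both were 33 genes, which is 6.25% of the 8w pw1 list and 7.05% of the other, and lower in both were 32, which is 8.67% and 8.79%. Opposite directions were found for 16 genes (3.03% and 4.40%) and 14 genes (3.79% and 2.99%).

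Eno1b was higher in both contrasts, by 2.19 and 2.87 on the log2 scale, and so were Met, the receptor of hepatocyte growth factor (1.76 and 1.67), and Clu, clusterin (1.66 and 1.57). Fos was lower in both, at -1.91 and -1.81, as were Atg10 (-2.11 and -1.48), Gjb2, a gap junction gene (-1.91 and -1.90), and Stfa3 (-1.57 and -2.22). Krt6a and Krt16 were higher at 8w pw1 and lower in the second healing than in the first, at 2.77 and -1.95 and at 5.05 and -1.68. Met, Clu and Gjb2 were chosen after their values were seen.

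**Figure D4:**
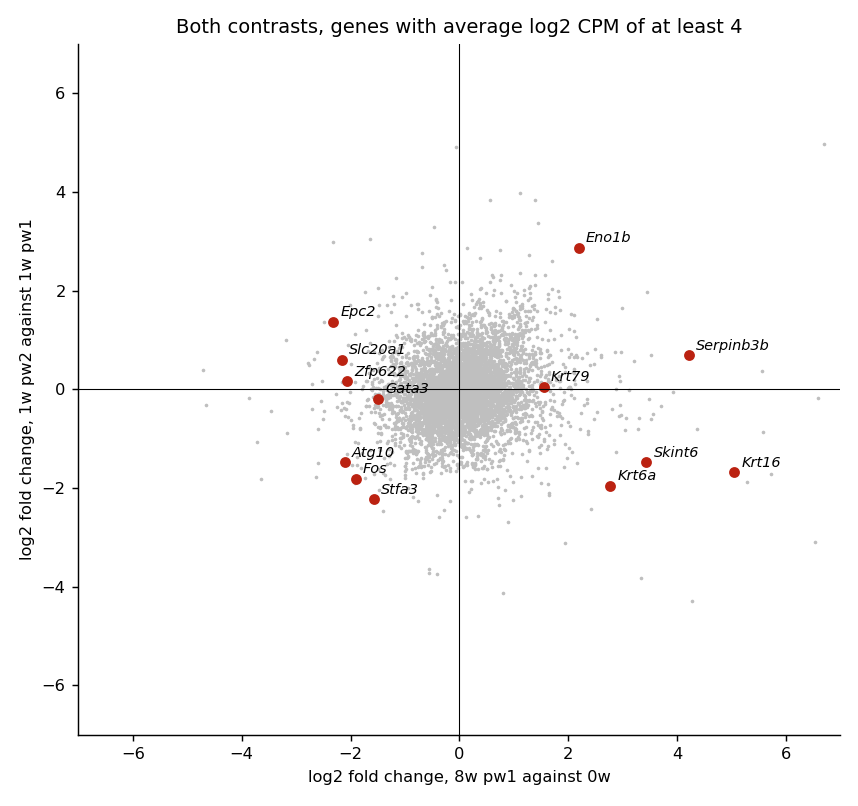
Log2 fold change of 8w pw1 against 0w (horizontal) and of 1w pw2 against 1w pw1 (vertical) for 6034 genes with an average log2 CPM of at least 4, with 12 more outside the axes. Each grey point is a gene and the red points are named ones, with Eno1b in the upper right, Fos and Atg10 in the lower left and Krt16 and Krt6a in the lower right.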

How the data were processed

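Single tdTomato-positive cells were sequenced by Smart-seq2, a full-length method without molecular identifiers. The authors aligned reads to the Ensembl 101 transcriptome with Salmon 0.13.1 and deposited estimated counts (expected counts) of 15652 genes in 696 cells, of which 96.6% are whole numbers. Every cell met the filter the authors describe (a minimum of 1000 genes, and mitochondrial counts up to 50%). The batch correction of the study is not part of the deposited counts.

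Counts were rounded, summed per plate and fitted with edgeR 4.0.16 (R 4.3.3): TMM scaling, filterByExpr, all 8 plates, the time point as the only term, quasi-likelihood test, Benjamini-Hochberg adjustment, 4 residual degrees of freedom, biological coefficient of variation 0.61. A gene was called at an adjusted p below 0.05 and an absolute log2 fold change above 1. DESeq2 1.42.0 was run on the same sums. Fold changes are on the log2 scale of fitted values with standard errors, which are not given for genes with 0 counts in a group. Levels are CPM (counts scaled by TMM to a common library total). A bound ("at least") sets 3 counts over the plates of the 0w group in place of 0 and covers counting error only. The fitting was tested on simulated data with less spread between plates than was found here, so that test does not give its power on these plates.

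Named genes were Lrig1, Krt6a, Krt6b, Slc2a1, Postn and Ly6a. Added to them were the 12 genes with the lowest p in each direction among those with an absolute log2 fold change above 1, an average log2 CPM of at least 4, plates that do not overlap, counts in at least 5 cells on each plate of the higher group and no cell with over 50% of the counts there. Gene models, pseudogenes and mitochondrial transcripts were left out of these. Members of the 24 lists and genes that an alternative calls were also named. The members and the lists were chosen with earlier results of these data known. Gene coordinates are those of GENCODE M21 (GRCm38), matched by symbol, and start regions are those of RefSeq (GRCm38.p6), which had windows for 8 of the 12 higher and 9 of the 12 lower genes. Results of some genes are not reported here.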

Additional observations from a re-analysis of the deposited data

How the results depend on the processing

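Results were recomputed under up to 17 other settings, of which list medians had 16 (no DESeq2) and Krt6b no value in the fit of the 4 plates compared alone. With a replicate block, edgeR called 3 genes in place of 0, Krt2, Serpinb3b and 2610528A11Rik. Deviations of plates with the same number correlated at 0.12 to 0.21 between time points, but with only 2 numbers this does not show that the numbers pair the plates. Giving each cell the same total before summing led to 3 calls (Krt2, Stfa1 and 2610528A11Rik), and DESeq2 made 155. Without 1 plate in turn, 0 to 2 genes were called, the 2 being Stfa1 and Sprr2a2 without 8w pw1 replicate 2. In those fits a lone plate is assumed to vary like the other groups. The number of genes higher at an unadjusted p below 0.05 was 310 to 613 without 1 plate, with 310 without 0w replicate 2, and that of genes lower was 311 to 524. Lower genes numbered 560 with DESeq2 and 621 with a stricter filter on cells (a minimum of 2000 genes, mitochondrial counts up to 25%). The cause was not tested. None of the 24 genes of the naming rule changed direction, which the rule largely fixes since it takes only genes whose plates do not overlap, but sizes moved. The stricter filter gave 0.67 for Myof, 1.4 for Emsy, 1.83 for Il1f9, 3.63 for Cstdc5 and -0.71 for Zup1. With cells weighted equally Btbd1 stood at -0.95 and Zfp433 at -1.58. Endou stood at 1.06 without 8w pw1 replicate 1 but at 3.12 in basal-type cells, where Mt4 rose to 7.12. Genes whose groups overlapped did so, without 1 plate, over the ranges -0.27 to 0.51 for Lrig1, -0.15 to 0.17 for Slc2a1, -1.36 to 0.22 for Postn and -0.37 to 1.29 for Ly6a, and Slc2a1 stood at -0.81 with the stricter filter. List medians kept their sign in those 16 settings for interfollicular differentiation, stefins and serpins, basal layer, immediate early, glycolysis, bulge, upper follicle, Notch, Polycomb, migration, Skint and tail scale genes. The other 12 lists reached 0 or the opposite sign in 1 to 5 settings. With 2 plates a group, the number of plates limits the precision.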
